A study of Rattus norvegicus with 8 samples.

Results

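Collagen chain genes were compared between the hypothalamus of female and male rats. The members were all spots, controls left out, whose gene name in the array files starts with Col, a number, the letter a and a number. This gave 36 gene names out of 19216 named genes on the array, with 47 of 30367 probes, each of 60 bases and on 1 spot. Of these names 35 are collagen genes with 46 probes: 10 fibrillar genes, 7 basement membrane genes and 18 others. The remaining name, Col4a3bp, belongs to a ceramide transfer protein (now Cert1) and not to a collagen. It stays out of all collagen counts. The animals were Sprague Dawley rats aged 3 to 4 months, 4 females in estrus and 4 males, and the labels give no treatment for either sex. Because every female was at this stage, the sexes and the stage cannot be told apart. The stated interest of the study was how the sexes differ in genes of the cytoskeleton, so the collagens were not its subject. Total RNA of 1 female and 1 male was hybridised to each of 4 two-colour arrays, with the female in the green dye Cy3 on arrays 1 and 3 and in the red dye Cy5 on arrays 2 and 4.

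Collagens are secreted proteins built from 3 chains that wind around each other in a triple helix, for which each chain needs a glycine at every 3rd residue. Fibrillar collagens such as types I, III and V form the tensile fibres of connective tissue, network-forming type IV collagen makes the sheet of the basement membrane, and the remaining types decorate fibres, form beaded filaments or span the cell membrane. In the brain, nerve cells are nearly free of collagen fibres. The fibrillar chains are known from fibroblasts of the meninges and around larger vessels, and type IV collagen from the basement membrane of capillaries and the pial surface. In bulk tissue, a lower level cannot be told apart between fewer cells of a type and less RNA per cell.

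The repeat that makes a chain a collagen can be read directly in the probes that lie in a helical region. The following pair, given as on the array from 5′ to 3′, holds such a stretch, with glycine codons in capitals. The Col4a1 probe A_64_P293606 has 6 of them, each 3 codons after the last, and the Col14a1 probe A_64_P093194 has 7, with an interruption of the regular spacing in the middle.
Col4a1: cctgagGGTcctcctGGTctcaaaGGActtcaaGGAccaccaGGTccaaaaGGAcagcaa
Col14a1: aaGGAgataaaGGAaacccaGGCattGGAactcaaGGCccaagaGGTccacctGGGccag

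Green signals were stronger than red ones: the median spot stood 492.5 to 519 intensity units over its surroundings in the 4 Cy3 samples and 146 to 269.5 in the 4 Cy5 samples. The scanner software placed 84.9% to 87.0% of Cy3 spots well above background, against 77.6% to 80.2% of Cy5 spots, and called 0 saturated. The number of arrays limits the precision. Of 18 markers of hypothalamic neurons 17 were measured, and male replicate 2 stood apart in them. Its log2 level of Avp (vasopressin) was 12.02 against 16.15 to 16.68 in the other 7 animals, and that of Pmch (melanin-concentrating hormone) was 12.19 against 16.29 to 17.09. Its level of Neurod2, a transcription factor of cortical and hippocampal neurons, was 12.68 against 6.72 to 9.60. The 9.60 was that of female replicate 2, and the remaining animals lay at 6.72 to 8.33. The RNA labelled male replicate 2 thus goes against its tissue label in these genes. Since it shared array 2 with female replicate 2, results that rest on it are also given without that array.

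A log2 ratio below is female over male, fitted with limma to the 4 arrays with a term for the dye, and ± gives its standard error. A log2 ratio of 1 is a doubling. A gene is represented by its probe with the highest mean signal. Of the 35 collagen genes, 30 had a probe that passed the filter on dim spots (clearly over background in the whole of at least 1 sex), 10 fibrillar, 5 basement membrane and 15 others. After Benjamini-Hochberg adjustment over 21995 probes, limma called 0 of the 30 at 0.05, as for 0% of 14604 genes. At unadjusted p under 0.05, 4 of the 30 were higher in females (Col5a1, Col14a1, Col17a1 and Col18a1), against 5% of all genes, and 0 were lower, against 3.49%, so 4 of 30 stood below that p in either direction against 8.49%. The adjusted p of each of these 4 was 0.555, with 4 animals of each sex. Without array 2, 3 were higher (Col2a1, Col14a1 and Col17a1), against 4.18%. Without array 4, limma called 5 of the 30 after adjustment, Col1a2, Col2a1, Col3a1, Col6a2 and Col9a2, all higher in females, among 1096 of 14512 genes. In that fit array 2 is the only array with females in Cy5. The fit with its dye term matches array 2 exactly, so the spread of array 2 does not enter these p-values. Col1a2, Col2a1, Col3a1 and Col6a2 had ratios below 0 on arrays 1 and 3, so their sign there rests on array 2. Leaving out array 2 makes array 4 the only such array. With median centring in place of loess, the split over all genes became 243 higher and 532 lower, from 730 and 510, while 2 collagens were higher and 0 lower. The split was 427 and 613 with the scanner's own log ratio (3 and 0 collagens), and 155 and 1012 of 12044 genes in the authors' deposited table (1 and 0 collagens).

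The collagen ratios nevertheless leaned one way. The fitted ratio was above 0 for 28 of the 30 genes, against 56.3% of all genes, with Col4a2 and Col24a1 below 0. The median was 0.16 over the 30 collagens and 0.022 over all genes. By class it was 0.26 over the 10 fibrillar genes (9 above 0), 0.13 over the 5 basement membrane genes (4 above 0) and 0.16 over the 15 others (15 above 0). Without array 2, the ratio was above 0 for 24 of 30 collagen genes, against 57.9% of all genes. The medians then read 0.073 for the collagens, 0.079 for the fibrillar class, 0.066 for the basement membrane class and 0.081 for the others.

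**Figure D1:**
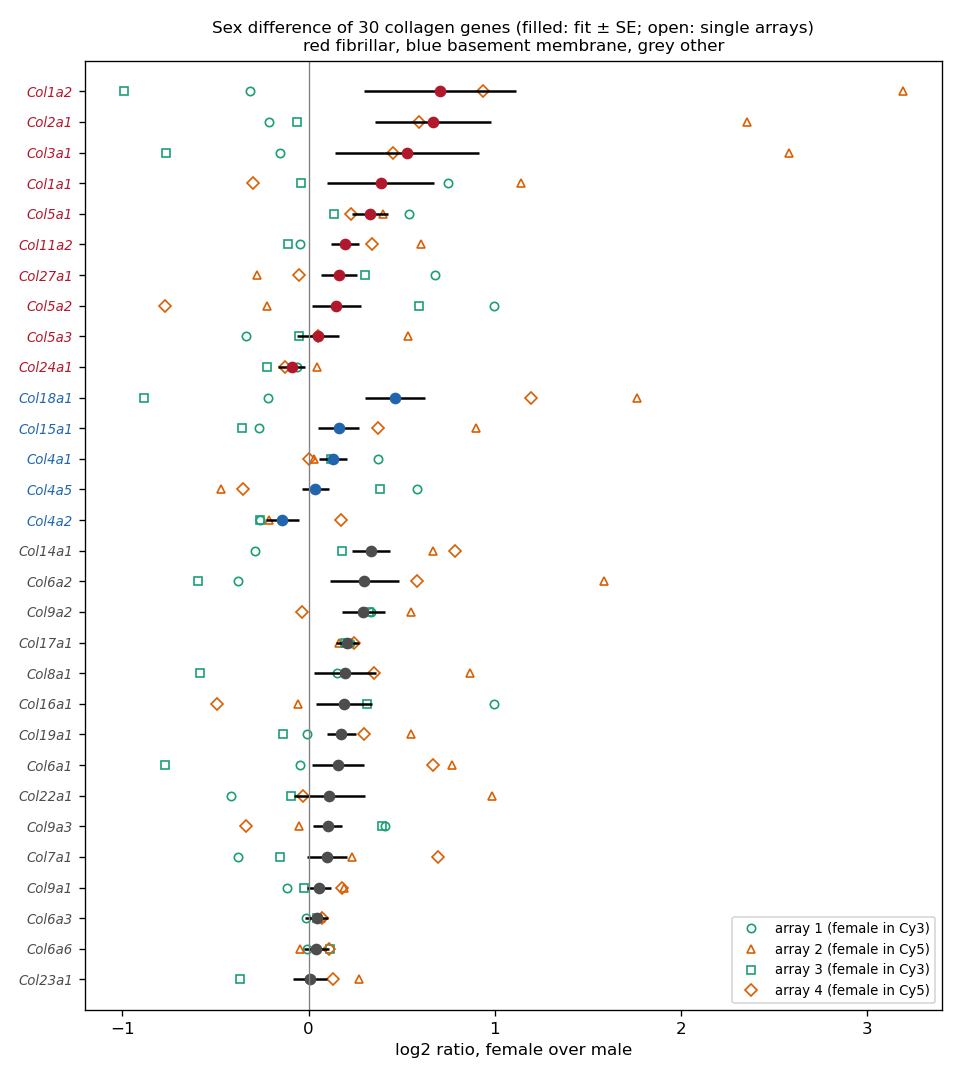
Log2 ratio of female over male (horizontal axis) for the 30 collagen genes measured, ordered by class and size. Filled points with bars give the fit and its standard error, and open symbols the 4 single arrays, green where the female carried Cy3 and orange where she carried Cy5. The farthest points to the right belong to array 2, at 3.19 for Col1a2, 2.58 for Col3a1 and 2.35 for Col2a1.

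The lean was not shared by all arrays. The ratio was above 0 for 12, 23, 12 and 21 of the 30 genes on arrays 1 to 4, against 52.5%, 49.1%, 51.9% and 48% of all genes. The median collagen ratio was -0.030, 0.47, -0.059 and 0.18 in the same order. The arrays with many ratios above 0 were those on which females carried Cy5. The 3 genes Col4a1, Col5a1 and Col17a1, 10% of the 30, had 1 sign on all 4 arrays, near the 10.5% of all genes. In 0 of the 30 genes did the levels of the sexes fail to overlap, against 2.64% of all genes.

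Type I collagen, the main fibre of dura, pia and vessel adventitia, is a trimer of 2 chains from Col1a1 and 1 from Col1a2. Col1a2 (chromosome 4, 29428206 to 29428265, positions here on the rn4 build of the array files) had log2 levels of 14.14, 13.95, 13.22 and 13.84 in females 1 to 4 and of 14.45, 10.75, 14.21 and 12.90 in males 1 to 4. Of the 4 males, 3 lay within or close to the female range and male 2 lay far below it. The array ratios were -0.31, 3.19, -0.99 and 0.93, and the fitted ratio was 0.70 ± 0.41 (adjusted p = 0.571 from limma), a 1.63-fold difference that the spread between arrays covers. Without array 2 it read 0.14.

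Col1a1, its partner chain, was read by 2 probes. The brighter one (chromosome 10, 83637956 to 83638015) had levels of 12.76, 11.23, 11.73 and 11.39 in females and 12.02, 10.09, 11.77 and 11.69 in males. Female 1 was the highest of the 8 and male 2 the lowest, and the other 6 animals mixed. Its ratios were 0.75, 1.14, -0.043 and -0.30, with a fit of 0.39 ± 0.29 (adjusted p = 0.612 from limma) and 0.028 without array 2. The other probe, A_64_P040278, lies further along the transcript, towards its 3′ end. It gave -0.86, 2.62, -1.58 and 0.69, a fit of 0.22 ± 0.36 and -0.27 without array 2. The probes of this gene disagreed on the sign of the ratio on arrays 1 and 4, and the second had a dye term of -1.44 against -0.033 for the first.

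Type III collagen, from Col3a1 alone, forms thin fibres alongside type I. Col3a1 (chromosome 9, 44317465 to 44317524) had levels of 13.01, 12.43, 12.24 and 12.57 in females and 13.16, 9.85, 13.00 and 12.12 in males. Male 1, female 1 and male 3 were the highest of the 8 and male 2 the lowest. Array ratios of -0.16, 2.58, -0.76 and 0.45 gave a fit of 0.53 ± 0.38 (adjusted p = 0.611 from limma), and -0.0032 without array 2. Col2a1, the type II chain known from cartilage, had levels of 10.58, 10.71, 10.76 and 10.99 in females and 10.79, 8.36, 10.83 and 10.39 in males. Here too male 2 was the only animal outside a narrow band. Its ratios of -0.21, 2.35, -0.063 and 0.59 gave 0.67 ± 0.31 (adjusted p = 0.555 from limma) and 0.23 without array 2.

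**Figure D2:**
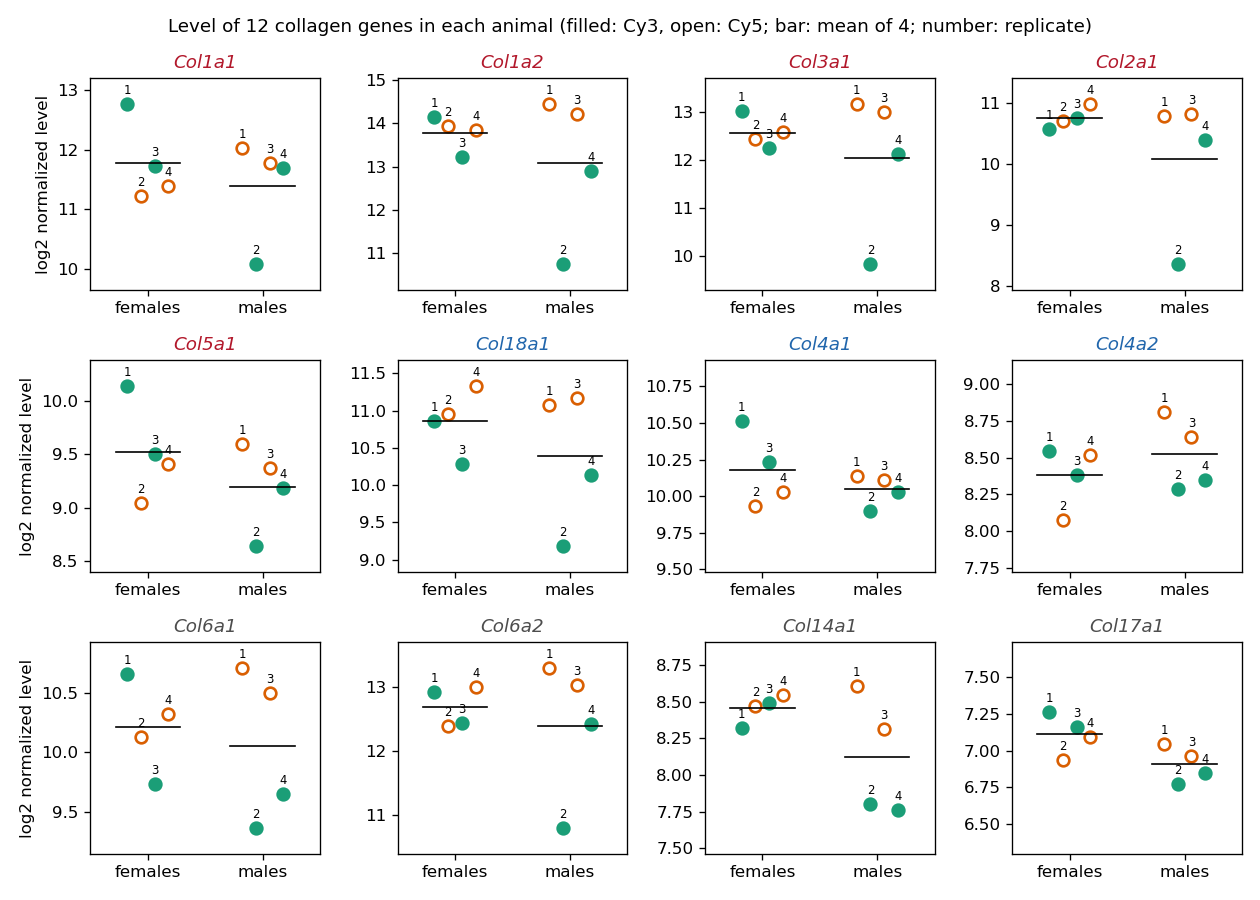
Log2 normalized level (vertical axis, a separate scale for each gene) of 12 collagen genes in 4 females and 4 males; filled points are Cy3, open points Cy5, bars are means of 4 and numbers are replicates. Male 2 lies well below the other 7 animals in Col1a2 (10.75), Col3a1 (9.85), Col2a1 (8.36) and Col6a2 (10.80), while in Col4a1, Col14a1 and Col17a1 it lies among or next to the other males.

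Type V collagen is the minor fibrillar type that sets the width of type I fibres. Its Col5a1 chain (chromosome 3, 6970963 to 6971022) had the smallest p of the fibrillar class. Levels were 10.14, 9.04, 9.50 and 9.41 in females and 9.60, 8.64, 9.37 and 9.18 in males, so the sexes overlapped but each female exceeded the male on her array. The ratios of 0.54, 0.40, 0.14 and 0.23 fitted to 0.33 ± 0.097 (adjusted p = 0.555 from limma). Col5a1 was no longer below an unadjusted p of 0.05 without array 1 (0.23) or array 2 (0.28). Nor was it with median centring (0.29), in the authors' table (0.27) or without the array as a block. Its partner Col5a2 gave 1.00, -0.22, 0.59 and -0.77, so the sign followed the dye, and the fit was 0.15 ± 0.13. Col5a3 stood at 0.049 ± 0.11.

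The remaining fibrillar genes showed smaller differences. Col11a2, a chain of type XI collagen that works inside type II fibres, was read by 2 probes. The brighter had levels of 13.09, 13.24, 12.83 and 13.25 in females and 13.13, 12.64, 12.94 and 12.91 in males, which overlap. It gave ratios of -0.046, 0.60, -0.11 and 0.34 and a fit of 0.20 ± 0.076 (adjusted p = 0.555 from limma). The second Col11a2 probe gave 1.17, -0.66, 0.65 and -0.25, the opposite sign on every array, yet a fit of 0.23 ± 0.13. Their dye terms were -0.27 and 0.68. Col27a1 stood at 0.16 ± 0.097. Col24a1 stood at -0.091 ± 0.073 and passed the filter through males alone, with 2 of 4 females and 4 of 4 males well above background.

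Among basement membrane genes, type IV collagen is the network on which laminin is anchored, and the common heterotrimer of vessels consists of Col4a1 and Col4a2 chains. The pair lies head to head in the genome, with starts so close that they share a promoter. The interval between the annotated starts in RefSeq, chr16:84885521-84885596 on the plus strand of GRCr8, is 76 bases long, with capitals marking a GC box.
Col4a1 and Col4a2: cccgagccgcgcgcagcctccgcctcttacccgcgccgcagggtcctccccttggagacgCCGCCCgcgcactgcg
The box searched was GGGCGG on either strand, that is also CCGCCC, which 18.1% of 33469 start-region windows of the same length hold. The GC content of the interval was 78.9%, against a median of 53.9%. A start region was found in the RefSeq table for 28 of the 35 collagen genes. The starts of Col4a3 and Col4a4, another head-to-head pair, lie 412 bases apart.

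From this shared start, the chains showed small ratios of opposite sign. Col4a1 (chromosome 16, 83157776 to 83157835) had levels of 10.51, 9.93, 10.23 and 10.03 in females and 10.14, 9.90, 10.11 and 10.03 in males, so males lay inside or just below the female range. The ratios of 0.37, 0.031, 0.12 and 0.0011 fitted to 0.13 ± 0.075 (adjusted p = 0.569 from limma). The second Col4a1 probe, the helical one printed above, gave -0.17, 0.025, -0.27 and 0.22 and a fit of -0.050 ± 0.071. Col4a2 (chromosome 16, 82900301 to 82900360) had levels of 8.55, 8.07, 8.38 and 8.52 in females and 8.81, 8.29, 8.64 and 8.34 in males. Female 2 was the lowest and male 1 the highest, with overlap. Its ratios of -0.26, -0.21, -0.26 and 0.17 fitted to -0.14 ± 0.090 (adjusted p = 0.584 from limma), and -0.045 without array 2. Whether the ratios of Col4a1 and Col4a2 differ from each other was not tested.

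Col4a5, the X-linked chain of another type IV trimer, gave 0.58, -0.47, 0.38 and -0.35, a sign that followed the dye, and a fit of 0.037 ± 0.072. Col4a3 and Col4a4 did not pass the filter. Their probes were well above background in 0 of 8 and 5 of 8 samples.

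Col18a1 and Col15a1 encode the multiplexins, proteoglycan collagens of basement membranes whose end fragments are known to restrain vessel growth. Col18a1 (chromosome 20, 11981417 to 11981476) had levels of 10.86, 10.95, 10.28 and 11.33 in females and 11.08, 9.18, 11.17 and 10.13 in males. Male 2 was the lowest and males 1 and 3 lay within the female range. The ratios were -0.22, 1.77, -0.88 and 1.20, with a fit of 0.46 ± 0.16 (adjusted p = 0.555 from limma) beside a dye term of -1.02 ± 0.16 (adjusted p = 0.0347 from limma). The sex ratio was no longer below an unadjusted p of 0.05 without array 1 (0.30) or array 2 (0.32). The same held with the scanner's log ratio (0.48), in the authors' table (0.42), without a dye term and without the array as a block. Col15a1 (chromosome 5, 63930574 to 63930633) had levels of 9.01, 9.03, 8.75 and 9.17 in females and 9.27, 8.13, 9.11 and 8.80 in males, with male 2 again lowest. Its ratios of -0.27, 0.90, -0.36 and 0.37 fitted to 0.16 ± 0.11 (adjusted p = 0.596 from limma), and 0.030 without array 2.

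Type VI collagen forms beaded filaments between cells and fibres, from one chain each of Col6a1, Col6a2 and Col6a3. Col6a1 (chromosome 20, 12337772 to 12337831) had levels of 10.66, 10.13, 9.73 and 10.32 in females and 10.71, 9.36, 10.50 and 9.65 in males. Its ratios of -0.046, 0.77, -0.77 and 0.67 fitted to 0.16 ± 0.14 (adjusted p = 0.654 from limma). In this gene the Cy5 males 1 and 3 were high and the Cy3 males 2 and 4 low.

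Col6a2 (chromosome 20, 12464424 to 12464483) had levels of 12.92, 12.39, 12.44 and 13.00 in females and 13.30, 10.80, 13.04 and 12.42 in males, with only male 2 outside the band of the others. Its ratios of -0.38, 1.59, -0.59 and 0.58 fitted to 0.30 ± 0.19 (adjusted p = 0.582 from limma), and 0.048 without array 2. Col6a3 (chromosome 9, 89990169 to 89990228) lay between 6.93 and 7.07 in females and between 6.90 and 7.0 in males. It had ratios of -0.015, 0.067, 0.046 and 0.072 and a fit of 0.043 ± 0.061 (adjusted p = 0.773 from limma). This probe is dim, and a second Col6a3 probe was well above background in 0 of 8 samples, so the array says little about the third chain. Col6a6, a chain that can replace Col6a3, stood at 0.042 ± 0.069 on 1 probe, and its other probe was well above background in 0 of 8 samples.

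The fibril-associated collagens bind to the surface of fibres without forming any. Col14a1, known from tendon and skin, had the smallest p of this group. Its brighter probe (chromosome 7, 92032865 to 92032924) had levels of 8.32, 8.47, 8.49 and 8.55 in females and 8.61, 7.80, 8.31 and 7.76 in males. The females lay close together, males 2 and 4 lay well below them, and male 3 lay just below the lowest female. The ratios were -0.29, 0.67, 0.18 and 0.79, with a fit of 0.34 ± 0.10 (adjusted p = 0.555 from limma). Without array 2 it was 0.37, still below an unadjusted p of 0.05. It was no longer below it without array 3 (0.22), array 4 (0.31) or the dye term. The helical Col14a1 probe printed above gave -0.017, 0.14, 0.22 and 0.29 and a fit of 0.16 ± 0.078 (adjusted p = 0.555 from limma).

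Col9a2, a chain of type IX collagen, had levels of 11.50, 11.16, 11.29 and 10.94 in females and 11.16, 10.61, 10.97 and 10.98 in males. Its ratios of 0.34, 0.55, 0.32 and -0.035 fitted to 0.29 ± 0.12 (adjusted p = 0.555 from limma), and 0.15 without array 2. Females 1 and 3 lay at the top and male 2 at the bottom of overlapping ranges. The other type IX chains were lower in ratio, Col9a3 at 0.10 ± 0.078 and Col9a1 at 0.056 ± 0.062, 0.026 ± 0.073 and -0.0070 ± 0.099 on its 3 probes. Col16a1 stood at 0.19 ± 0.15, Col19a1 at 0.17 ± 0.077 and Col22a1 at 0.11 ± 0.19. Col22a1 read -0.14 without array 2.

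Of the collagens that span the membrane, Col17a1, a component of the hemidesmosome in skin, had ratios of 1 sign and similar size. Its probe (chromosome 1, 253012167 to 253012198) had levels of 7.26, 6.94, 7.16 and 7.09 in females and 7.04, 6.77, 6.96 and 6.85 in males. The ranges overlapped, yet the female exceeded the male on each array, by 0.22, 0.16, 0.20 and 0.25. The fit was 0.21 ± 0.062 (adjusted p = 0.555 from limma), and 0.23 without array 2, still below an unadjusted p of 0.05. It was no longer below it without array 1, 3 or 4 (0.19 to 0.21), with median centring (0.29) or without the array as a block. The fitted ratio of this dim probe was 0.52 without background correction and 1.14 with the scanner's log ratio. The second Col17a1 probe did not pass the filter, with ratios of -0.019, 0.013, 0.12 and 0.058. Col23a1 stood at 0.0084 ± 0.091, with its second probe not passing, and Col13a1 did not pass.

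Members of other kinds complete the measured set. Col7a1, the anchoring fibril beneath epithelia, stood at 0.098 ± 0.11. Col8a1, a short-chain network collagen of vessel walls, had ratios of 0.15, 0.87, -0.59 and 0.35 and stood at 0.20 ± 0.17. Its relatives Col8a2 and Col10a1 did not pass, with the Col8a2 probe well above background in 0 of 8 samples and both Col10a1 probes in 4 of 8. Col4a3bp, the name without a collagen, stood at 0.054 ± 0.064.

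Ratios of single arrays also moved with the dye. The limma dye term passed an adjusted p of 0.05 in 2 of 30 genes (Col18a1 and Col4a5), against 13.2% of all genes, and an unadjusted p of 0.05 in 14, against 33.6%. It was above 0 (a higher ratio with females in Cy3) in 10 of 30 genes, against 51.6% of all genes, and its median was -0.16, against 0.010. The sign of the ratio followed the dye on all 4 arrays in 17 of 30 genes, against 42% of all genes. In 12 of these 17 the ratio was below 0 where females carried Cy3 and above 0 where they carried Cy5. Array 2 held the highest ratio in 17 of 30 genes, against 29.1% of all genes. Without array 2, the dye term passed an adjusted p of 0.05 in 6 collagens and in 2355 of 14524 genes, from 2 and 1929 in limma.

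Animals also differed within a sex. Among the 4 libraries labelled with Cy3, where no dye adjustment is needed, male 2 was the lowest in 24 of 30 collagen genes, against 39.6% of all genes. Female 1 was the highest in 21, against 25.4%. Among the 4 labelled with Cy5, male 1 was the highest in 17 (15.7% of all genes) and female 2 the lowest in 18 (28%). Array 1 thus held the high animal of each dye and array 2 the low one, so the animals and their arrays cannot be told apart here.

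With each gene's dye term removed, male 2 was the lowest of all 8 animals in 21 of 30 collagen genes, against 28.5% of all genes, and female 1 the highest in 17, against 14.8%. The median collagen deviation from the mean of 8 animals was 0.30, -0.12, 0.11 and 0.0084 in females 1 to 4 and 0.11, -0.32, 0.043 and 0.0074 in males 1 to 4. Col1a2 deviated by 1.38 in female 1 and by -2.0 in male 2, Col3a1 by 1.20 and -1.96, and Col1a1 by 1.19 and -1.48. The dye term comes from the same 4 arrays, so an animal that stands apart also shifts these values for the other animals. The median standard deviation within a sex was 0.23 over the collagens, 0.34 over the fibrillar class, 0.25 over the basement membrane class and 0.19 over the others, against 0.14 over all genes. Col1a2 (0.93), Col3a1 (0.92), Col1a1 (0.78), Col6a2 (0.67) and Col2a1 (0.65) varied most between animals, while Col6a3 (0.050) and Col9a1 (0.049) varied least.

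**Figure D3:**
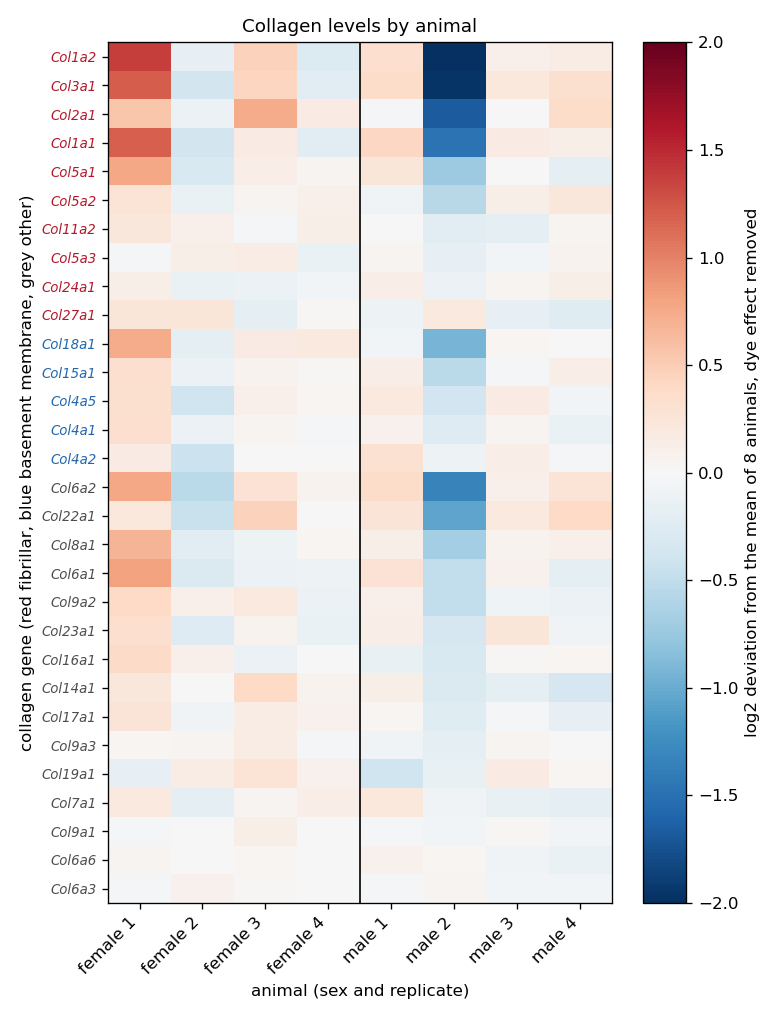
Deviation of each of 30 collagen genes (rows, by class) in each of 8 animals (columns) from the gene's mean over the animals, in log2 units with the dye term removed; red is above the mean and blue below. The column of male 2 is mostly blue and the column of female 1 mostly red, from -2.0 to 1.38 for Col1a2.

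The genes that build and remodel collagen were read from lists of known members. Of 31 genes for collagen synthesis and assembly 23 were measured, with a median ratio of 0.17. At unadjusted p under 0.05, 3 were higher in females (5% of all genes) and 0 lower. P4ha2, a prolyl hydroxylase that stabilises the helix, stood at 0.22 ± 0.061 with ratios of 0.065, 0.35, 0.11 and 0.34. Bmp1, the protease that removes the propeptide of fibrillar chains, stood at 0.23 ± 0.066. Without array 2, the median was 0.067 and the count higher was 1 (4.18% of all genes).

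Of 14 genes for collagen breakdown 11 were measured, all with a ratio above 0 (56.3% of all genes) and a median of 0.12, and 2 were higher in females at unadjusted p under 0.05 (5% of all genes). Timp3, an inhibitor of metalloproteinases that is bound to the matrix, had levels of 10.59, 9.90, 10.22 and 10.77 in females and 10.40, 8.77, 10.20 and 9.85 in males. Its ratios of 0.19, 1.13, 0.022 and 0.92 fitted to 0.57 ± 0.076 (adjusted p = 0.555 from limma), with male 2 lowest and the ranges overlapping. Mmp14, a membrane-bound collagenase, stood at 0.63 ± 0.21. Without array 2 the count was also 2 (4.18% of all genes) and the median 0.12, with 8 of 11 above 0 (57.9%).

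Of 10 collagen receptors 7 were measured, with 0 below the unadjusted threshold in either direction and a median of 0.082. The smallest p belonged to the integrin chains Itga10, at 0.093 ± 0.061, and Itga1, at 0.20 ± 0.13. Of 10 proteoglycans that bind fibres 8 were measured, all with a fitted ratio above 0 (56.3% of all genes) and a median of 0.23. At unadjusted p under 0.05, 1 gene was higher in females (5% of all genes). On arrays 1 to 4 the ratio was above 0 in 2, 7, 1 and 7 of the 8. Ogn (osteoglycin) had levels of 11.57, 12.12, 11.77 and 11.79 in females and 12.33, 8.79, 12.36 and 9.53 in males. The Cy5 males 1 and 3 lay above all females and the Cy3 males 2 and 4 below all of them. The ratios of -0.76, 3.33, -0.59 and 2.27 fitted to 1.06 ± 0.19 (adjusted p = 0.555 from limma) beside a dye term of -1.74. Omd (osteomodulin) stood at 0.49 ± 0.19. Without array 2 the median of these 8 was 0.16, 6 were above 0 (57.9% of all genes) and 2 were higher (4.18%).

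Of 15 laminins, nidogens and other partners of type IV collagen in the basement membrane 11 were measured, with 0 below the threshold and a median of 0.058. Lamb2 and Lama5, laminin chains of vessel and pial basement membranes, stood at 0.31 ± 0.12 and 0.37 ± 0.15. Of the 11, 6 had a ratio above 0 and 5 below. The ratio farthest from 0 was that of Nid1, a nidogen, at -0.87 ± 0.58, with 0.73, -0.31, -2.38 and -1.51 on arrays 1 to 4. The 5 pathway lists gave 6 genes higher in females (5% of all genes) and 0 lower (3.49%) at unadjusted p under 0.05. After adjustment they gave 0 genes. Without array 2 the lists gave 1, 2, 0, 2 and 0 genes higher, in the order above (4.18% of all genes).

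Markers of the cells that make collagen moved with the same animals. Of 17 markers of meningeal fibroblasts 15 were measured, 14 with a ratio above 0 (56.3% of all genes), a median of 0.39 and 4 higher in females at unadjusted p under 0.05 (5% of all genes; Slc47a1, Islr, Crabp2 and Aldh1a2). Their summed level was taken as the log2 of the sum of linear levels, with the dye term removed, so the brightest genes weigh most. It was 15.66 to 16.98 in females and 14.70 to 16.30 in males, with female 1 highest and male 2 lowest. Slc47a1, an organic cation exporter, had ratios of 0.50, 0.75, 0.72 and 0.70 and stood at 0.67 ± 0.072 (adjusted p = 0.555 from limma). Igf2, a growth factor made by the meninges, was at 12.17 in male 2 against 13.97 to 15.18 in the other 7 animals. These measured Igf2 levels were higher in males 1 and 3 (15.09 and 15.18) than in female 1 (15.01). Of 15 markers, 12 were above 0 without array 2 (57.9% of all genes), with a median of 0.14 and again 4 higher (4.18%).

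Of 13 mural cell markers 12 were measured, with a median of 0.13. Higher in females at unadjusted p under 0.05 were 4 (5% of all genes), Myh11, Des, Tagln and Higd1b. Each had an adjusted p of 0.555 from limma. Their summed level was 13.87 to 15.02 in females and 13.50 to 14.39 in males. Leaving out array 2, the median was 0.11 and 2 were higher (4.18% of all genes). Above 0 were then 8 of 12 (57.9% of all genes), against 10 with array 2 (56.3%). Of 14 endothelial markers 13 were measured, with a median of -0.031, 0 below the threshold and summed levels of 15.01 to 15.18 in females and 15 to 15.19 in males. The endothelial sum of male 2, at 15.02, lay within the range of the others, but its median deviation over these markers, -0.12, was the lowest of the 8 animals. Its collagen sum of 14.83 lay below the 15.56 to 16.49 of the other animals. The part that a different share of meninges or vessels has in the collagen ratios was not tested.

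Markers of neighbouring tissue also moved. Of 16 markers of cortex, hippocampus and striatum 12 were measured, with summed levels of 13.94 to 14.67 in females and 14.02 to 15.96 in males, male 2 being highest. Not all members of this list were high in male 2, with Drd2 at 10.29 and Rgs9 at 10.56 below all other animals (10.63 to 11.38 and 11.25 to 12.22). Hypothalamic markers summed to 17.38 to 18.55 in females and 14.52 to 18.60 in males, male 2 being lowest. All sums here have each gene's dye term removed, and male 2 also shifts that term. Female 4 and male 4 summed to 17.38 and 18.60. Their measured levels were 16.36 and 16.40 for Avp and 16.47 and 16.82 for Pmch. Differences among the other animals can thus not be read from these sums alone. The cortex, hippocampus and striatum list and the hypothalamic list had median ratios of -0.62 and 0.71. Without array 2 these came to -0.027 and 0.0036. Choroid plexus markers (10 of 11 measured) summed to 11.90 to 13.39 in females and 12.73 to 15.72 in males, highest in male 4. Without array 2, 5 of these 10 were lower in females at unadjusted p under 0.05 (563 of 14524 genes). With array 2 it was 1 (3.49% of all genes). The fit without array 2 matches array 4, the array of male 4, exactly. The spread of array 4 therefore does not enter those p-values. Ttr (transthyretin), the leading choroid plexus transcript, was at 16.49 in male 4 against 10.92 to 13.78 in the others. Pituitary markers (7 of 9 measured) summed to 15.59 to 16.57 in females and 14.16 to 17.07 in males. What gave rise to these marker differences, and how far they take part in the collagen values, was not tested.

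**Figure D4:**
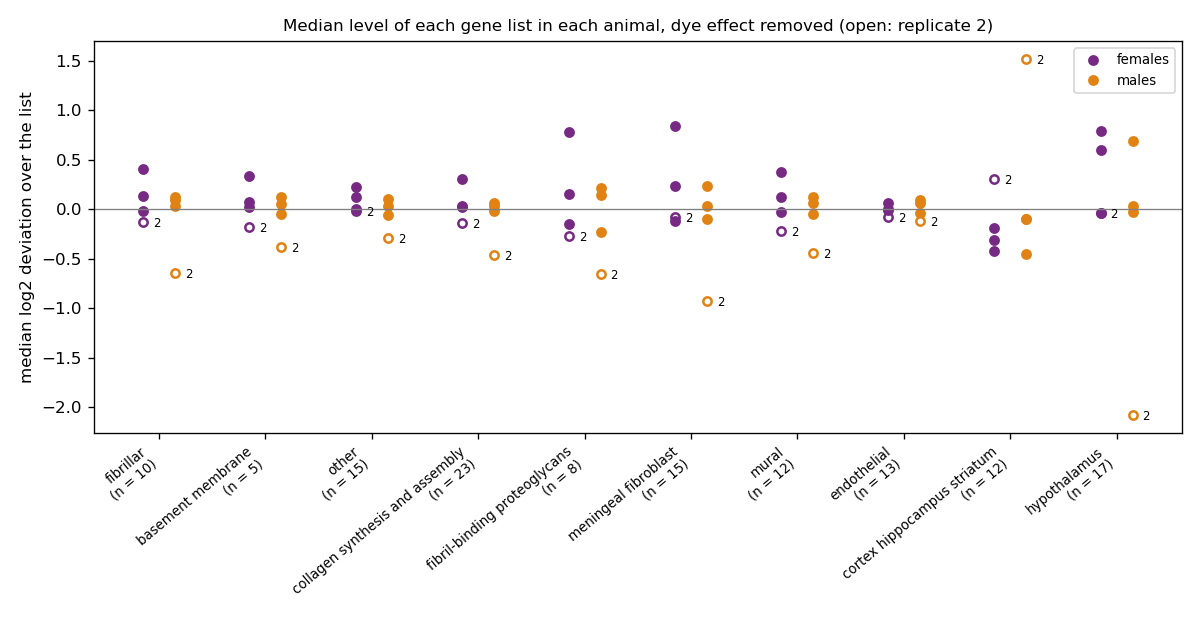
Median log2 deviation from the mean of 8 animals (vertical axis, dye term removed) for 10 gene lists, females on the left and males on the right of each position, with replicate 2 drawn open. Male 2 is the lowest animal in 9 of the lists, the endothelial list included (-0.12), and the highest in the cortex, hippocampus and striatum list at 1.52.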

How the data were processed

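Hypothalamic RNA of 4 females in estrus and 4 males was measured on 4 two-colour arrays, with dyes taken from the labels. The scanning software was Agilent Feature Extraction 10.7.3.1 according to the submitters' processing notes. Per the file headers, spot signals and local backgrounds are intensity values as scanned, and the scanner's own ratio, red against green, is on the log10 scale. The values deposited by the authors as a table are on the log2 scale and equal the log2 of median signal minus median background, less a constant per sample, within 0.01 for 100% of values, with column medians of 0. Columns of other samples numbered 0. Positions are those of the files (rn4).

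Mean signals were corrected with normexp (offset 50) and loess within arrays in limma 3.58.1 under R 4.3.3 with data.table version 1.17.8, with 1377 control spots at weight 0 and 931 to 1096 outlier spots per array left out. Probes with more than 0.5 of their spots well above background in all 4 samples of a sex were kept (22004, of which 21995 could be fitted). Levels were also scaled between arrays (Aquantile). Genes were named through RefSeq accessions for 17679 probes and by the files for 5142, and 7546 had no name. Ratios within an array make the array the replicate block, and the pairing comes from sharing it. With the dye term removed, deviations of paired animals correlated across genes at 0.61, 0.68, 0.47 and -0.084, and genes are not independent replicates. The dye term is fitted to the ratios within these pairs, so its removal can raise the correlations. They are no test of the pairing. P-values are two-sided and adjusted by Benjamini-Hochberg over all probes.

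Every member was named. Full values were given for chains that assemble together or are typical of meninges and vessels, and for the 3 genes with the smallest p in each class. Of each pathway list, up to 2 genes with the smallest p were named, and Nid1 was added for the size of its ratio. The markers named one by one were chosen after their values were seen. The members and lists were chosen with earlier results of these data known. The fit was also run on simulated data with the same noise for every probe. The real probes differ in noise, so that run does not bear on the collagen ratios. Alternatives were other background corrections, centring, filters, the scanner's log ratio, the authors' table, no dye term, no array block, another prior, the mean of a gene's probes, a 1.5-fold threshold and leaving out each array. Plots used Python 3.11.15 and matplotlib 3.10.9.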

Additional observations from a re-analysis of the deposited data

Results flagged for a closer look

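Among 60 sets of 4 levels of a gene in 1 sex, 3 had an animal whose distance from its nearest neighbour, as a share of the whole range, exceeded Dixon's limit for 4 values. Chance flags about 1 in 20 such sets. The Col1a1 level of male replicate 2 was 10.09, against 11.69 to 12.02 in the other males. The Col22a1 level of male replicate 2 was 7.32, against 8.78 to 9.0. The Col9a1 level of female replicate 1 was 8.24, against 8.38 to 8.39 in the other females, a small distance in a narrow set.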

How the results depend on the processing

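With limma, 0 collagen genes had an adjusted p under 0.05 in the main fit and in each alternative except leaving out array 4. Leaving out single arrays gave 0 to 5 such genes, and the 5 without array 4 were Col1a2 (1.27), Col2a1 (1.11), Col3a1 (1.06), Col6a2 (0.55) and Col9a2 (0.44), where 1096 of 14512 genes passed. With an array left out, the other array of its dye orientation is matched exactly by the fit. The p-values then do not include its spread, and without array 4 this holds for array 2, the array of male 2. At unadjusted p under 0.05, the 4 genes higher in females (730 of 14604 genes) became 2 without a dye term (168 of 14608). They became 2 with median centring (243 of 14604), 1 in the authors' table (155 of 12044) and 0 with a 1.5-fold threshold (52 of 14604). When single arrays were left out they became 1 to 12, with 1 without array 1 (170 of 14580 genes) and 12 without array 4 (2525 of 14512). The count lower in females was 0 to 1 over single arrays left out, the 1 being Col4a2 (-0.24) without array 4, where 1988 of 14512 genes were lower. Without the replicate block, which pairs the animals of an array, the count of 4 became 1 (Col14a1), against 603 of 14604 genes. The 2 genes with a dye effect (1929 of 14604 genes) became 1 without background correction (1325) and 5 with median centring (3271). They became 0 with the scanner's log ratio (0), 4 in the authors' table (1419 of 12044) and 1 without the replicate block (2293). Over single arrays left out they were 0 to 11, against 0 genes without array 1 and 4518 of 14512 without array 4. The count of ratios above 0 (28 of 30) ranged from 24 to 27 over single arrays left out and was 19 of 26 in the authors' table, where 4482 of 12044 genes were above 0. The median collagen ratio stayed above 0 throughout, from 0.073 without array 2 to 0.25 without array 4. Of 533 values of single probes under alternatives, 472 kept sign and side of unadjusted p of 0.05, 25 changed sign without being called, 17 passed it only there and 19 no longer did.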
